A study of Mus musculus with 10 samples.

Results

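The 10 genes described here carry the hepatic urea cycle and the handling of ammonia around it. The rule takes them by name for their known roles and uses no measured value, although it was set with earlier results of these data known. They are 10 of the 24421 genes listed in the count table. The set holds the 5 cycle enzymes Cps1, Otc, Ass1, Asl and Arg1, the activating enzyme Nags, the mitochondrial carriers Slc25a13 and Slc25a15, and the ammonia-releasing enzymes Gls2 and Glud1. None was lost to the minimum on counts, and all 10 entered the test.

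Hepatic polyadenylated RNA was sequenced from 10 male wild-type C57BL/6 mice, aged 21 weeks by the sample labels, that were fed ad libitum. The 5 mice of the Chow group ate standard chow. The 5 mice of the TM5614 group ate the same kind of chow with TM5614, an orally active small molecule inhibitor of plasminogen activator inhibitor PAI-1, at 20 mg/kg/day for 10 days. Each mouse gave 1 library, so that every comparison was between 5 mice and 5 mice of 1 strain and 1 sex, after 1 dose and 1 duration. The whole liver was the unit of measurement, and fewer cells of a type and less RNA per cell cannot be told apart in such bulk samples.

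The urea cycle turns ammonia, which is toxic to the brain, into urea for excretion, and the liver is the organ in which the whole cycle runs. Its first steps take place in the mitochondria of hepatocytes and its later steps in the cytosol, so that ornithine and citrulline have to cross the inner mitochondrial membrane. The cycle is strongest in hepatocytes near the portal vein, whereas the few hepatocytes around the central vein capture remaining ammonia as glutamine. Its enzymes are known to be induced together by fasting, by glucagon and glucocorticoid signals and by protein intake.

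One member, Slc25a15, which encodes the mitochondrial ornithine carrier, rose 1.80-fold with TM5614. The transcripts of the cycle enzymes did not pass the test. Levels of Glud1, a glutamate dehydrogenase, lay lower in the TM5614 group in most mice, and it did not pass with all 10 libraries in edgeR but passed in some of the alternatives. In all, 1 of 10 members passed an adjusted p under 0.05 in edgeR's quasi-likelihood test, against 4.5% of the 11092 genes tested. The call was in the higher direction, in which 1.73% of all genes were called, and no member was called lower, in which 2.77% were. An unadjusted p under 0.05 was found in 2 of 10 members and in 2263 of the 11092 genes, so this count lay near that of all genes. The groups did not overlap in 1 of 10 members, against 8.93% of all genes. The median log2 fold change of the members was 0.069 and that of all genes 0.013, and the median size of the change, regardless of sign, was 0.22 in both. As a share and in size, the members' changes therefore lay near those of all genes.

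Total counts per library ran from 6398335 to 10874955, and 17291 genes had at least 1 count. The tissue carried the defining hepatocyte transcripts, and of 9 hepatocyte markers tested 0 were called in edgeR and 1 had an unadjusted p under 0.05. Albumin (Alb) reached 69452 to 98093 CPM, a count scaled to the size of its library. Chow replicate 2 stood apart from its group before any comparison, and GC content and gene length accounted for 46.0% of the variation of its deviations across genes, against 0.763 to 11.5% in the other libraries. TM5614 replicate 2 held skeletal muscle transcripts at 4093 CPM summed over 10 genes, where the Chow libraries held 0.728 to 1.45 CPM and the other TM5614 libraries 1.29 to 70.8 CPM. The part of either in the results was not tested. Values without these libraries are given beside some, not all, of the results that they move. An estimate without such a value may therefore also depend on them.

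The first question was how much transcript each step of the cycle had. Levels between genes were compared as FPKM, which scales counts by gene length and library. Arg1, which splits arginine into urea and ornithine, stood highest, at 1370 ± 349 FPKM in Chow livers and 1528 ± 165 FPKM in TM5614 livers (SD, n = 5). Asl, the argininosuccinate lyase, followed in the Chow group at 844 ± 164 FPKM, and Cps1, the carbamoyl phosphate synthetase that captures free ammonia, at 813 ± 327 FPKM. In the TM5614 group the order of these enzymes was the other way round, with Cps1 at 1106 ± 227 FPKM and Asl at 966 ± 118 FPKM. Ranges of Asl and Cps1 overlapped within each group, and the mean order in the Chow group came from replicate 2, since Asl stood above Cps1 in only 1 of 5 Chow libraries.

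The middle of the order held Glud1, Gls2, the liver-type glutaminase, and Otc, the ornithine transcarbamylase. Glud1 reached 298 ± 39.3 FPKM in Chow livers and 247 ± 13.3 FPKM in TM5614 livers. Gls2 at 198 ± 47.3 FPKM and Otc at 197 ± 37.7 FPKM overlapped in the Chow group, and at 190 ± 22.1 and 193 ± 2.87 FPKM they overlapped in the TM5614 group. Slc25a13, the aspartate and glutamate carrier citrin, was at 110 ± 28.7 FPKM in Chow livers and 123 ± 18.5 FPKM in TM5614 livers. Nags, whose product N-acetylglutamate is the obligate activator of Cps1, was far lower, at 29.3 ± 5.43 and 24.8 ± 3.02 FPKM. Ass1, the argininosuccinate synthetase, was lowest as counted, at 1.55 ± 0.581 and 1.26 ± 0.594 FPKM. Of the 75-base windows of its transcript, 46.9% also occur in the pseudogene Gm5424. The part of this in its low level was not tested. Ranges of Nags and of Ass1 met those of no neighbour in the order in either group.

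Slc25a15, the ornithine carrier, changed its place as well. It stood at 94.5 ± 23.3 FPKM in the Chow group, where its range overlapped that of Slc25a13 and the latter was higher in 3 of 5 libraries. In the TM5614 group it stood at 169 ± 23.8 FPKM, above Slc25a13 in 5 of 5 libraries with ranges that did not overlap. Among all genes ordered by mean FPKM it moved from place 728 to place 395. Arg1, Asl and Cps1 together made up 74.96 to 81.01% of the summed FPKM of the members. That sum was 3956 ± 820 FPKM in the Chow group, 4246 ± 577 without Chow replicate 2, and 4549 ± 503 in the TM5614 group (SD, n = 5 or, without that replicate, 4), so that the group ranges overlapped.

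**Figure D1:**
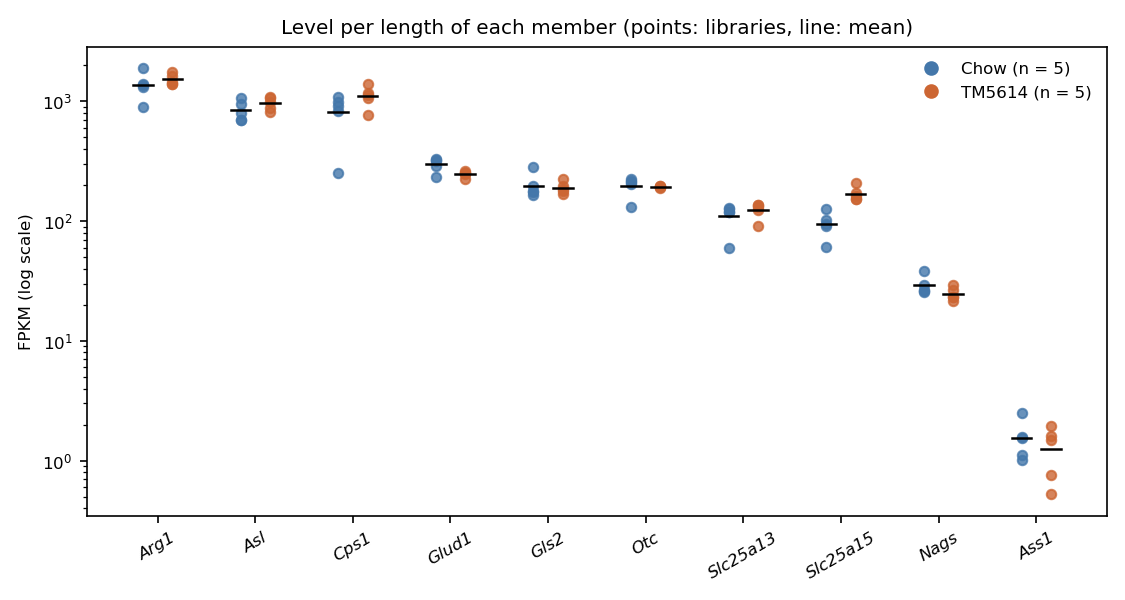
Level per length of each member in FPKM on a log axis, with 1 point per library, Chow in blue and TM5614 in orange, and a line at each mean (n = 5). Slc25a15 is the member whose points separate, at 60.9 to 126 FPKM in Chow and 152 to 210 FPKM in TM5614 livers. Ass1 as counted lies far under all others, and the part of its windows shared with Gm5424 in this was not tested.

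The comparison of TM5614 with Chow was then read for each member from a fit across all genes, in the order of the pathway. Fold changes are log2 ratios of TM5614 to Chow, p-values are from edgeR and adjusted over all genes tested, and 0.05 was the threshold.

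Ammonia reaches the mitochondrial matrix in part through Gls2, which hydrolyses glutamine. Gls2 was at 436, 414, 488, 709 and 447 CPM in the Chow mice and at 491, 577, 450, 420 and 462 CPM in the TM5614 mice. The groups overlapped throughout, with Chow replicate 4 above all other libraries. TM5614 against Chow gave a log2 fold change of -0.06 (SE 0.16, adjusted p = 0.859), with a 95% interval from -0.39 to 0.28.

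Glud1 releases ammonia from glutamate in the matrix. It was at 1053, 745, 1027, 927 and 1007 CPM in the Chow mice and at 806, 731, 808, 825 and 789 CPM in the TM5614 mice. In the Chow group 4 of 5 libraries lay above every TM5614 library, and replicate 2 lay within the TM5614 range. Its log2 fold change was -0.27 (SE 0.11, 95% interval -0.51 to -0.03) and did not pass adjustment (edgeR adjusted p = 0.203). Without Chow replicate 2 it was -0.35 (SE 0.07, adjusted p = 0.0129), with a correction for GC content and length -0.33 (SE 0.08, adjusted p = 0.0364), and without TM5614 replicate 2 it was -0.24 (SE 0.12, adjusted p = 0.285). Of the 75-base windows of its transcript of 3390 bases, 5.82% also occur in transcripts of the loci Gm43444 and Glud-ps.

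Nags was at 57.1, 82.7, 63.0, 55.0 and 55.9 CPM in the Chow mice and at 57.4, 63.2, 50.1, 46.0 and 49.7 CPM in the TM5614 mice. Its groups overlapped, and Chow replicate 2 was the highest library. The estimate, as a log2 fold change, was -0.24 (SE 0.14, adjusted p = 0.360) and -0.13 without that library. An exon of Nags overlaps the antisense gene Gm11586, and 19.0% of its windows are shared with that gene. The use of strand in counting is not given in the sources used here, and reads of these overlapping genes cannot then be told apart.

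Cps1 uses free ammonia and bicarbonate to make carbamoyl phosphate and is one of the most abundant mitochondrial proteins of hepatocytes. It was at 4695, 1415, 5084, 6120 and 5590 CPM in the Chow mice and at 6317, 4406, 7874, 5971 and 6611 CPM in the TM5614 mice. Chow replicate 2 lay far below all other libraries, and the remaining libraries of both groups overlapped. The log2 fold change was 0.44 (SE 0.31, adjusted p = 0.429), with a 95% interval from -0.22 to 1.11. Without Chow replicate 2 the estimate fell to 0.21 (SE 0.15, adjusted p = 0.446), and the SD of log2 CPM among Chow mice went from 0.87 to 0.17.

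Otc joins carbamoyl phosphate with ornithine to form citrulline. It was at 509, 299, 466, 497 and 485 CPM in the Chow mice and at 448, 459, 434, 438 and 442 CPM in the TM5614 mice. The TM5614 livers lay very close to each other, with a coefficient of variation of FPKM of 1.49% against 19.2% in Chow livers. Most of that Chow spread came from replicate 2. The SD of log2 CPM was 0.32 among Chow mice, 0.055 without Chow replicate 2 and 0.031 among TM5614 mice. The 4 Chow libraries other than replicate 2 all lay above the TM5614 range. TM5614 against Chow gave a log2 fold change of -0.02 (SE 0.14, adjusted p = 0.943), and without Chow replicate 2 it was -0.15 (SE 0.07, adjusted p = 0.203).

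In the cytosol, Ass1 condenses citrulline with aspartate. Its deposited counts were 6 to 27 per library, or 2.55, 2.60, 1.67, 4.12 and 1.84 CPM in the Chow mice and 0.862, 3.24, 2.64, 1.26 and 2.46 CPM in the TM5614 mice. As counted, its level was far under that of its cycle neighbours Otc and Asl. Of the 1622 windows of 75 bases, the read length, in the Ass1 transcript, 761 (46.9%) occur unchanged in the transcript of the processed pseudogene Gm5424 on chromosome 10, which was listed at 0 counts in every library. The pseudogene matches Ass1 at 99.5% of 1240 aligned bases, with 6 substitutions and no gap. The following window, bases 783 to 857 of the Ass1 transcript in the coding sequence, is shown because a read from it is the same for both genes.
Ass1 and Gm5424: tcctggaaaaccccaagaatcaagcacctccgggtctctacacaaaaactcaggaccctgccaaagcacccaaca
Among windows that do differ, bases 821 to 895 of Ass1 carry a single substitution, G38C, with positions counted from 1 at the 5′ end of the window and the Ass1 base first; the base is in capitals.
Ass1: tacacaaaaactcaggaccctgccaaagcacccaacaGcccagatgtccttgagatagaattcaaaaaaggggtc
Gm5424: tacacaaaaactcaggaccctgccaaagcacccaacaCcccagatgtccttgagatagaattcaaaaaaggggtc
Within the coding sequence, 65.1% of the windows of this length are identical in both. How the authors counted reads that match both places is not given in the sources used here, and the part of this in the low counts was not tested. The comparison for Ass1 (log2 fold change -0.25, SE 0.36, adjusted p = 0.717) is uncertain. It rests on 6 to 27 counts per library and has a wide 95% interval, from -1.03 to 0.54.

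Asl cleaves argininosuccinate into arginine and fumarate. It was at 1073, 1472, 1082, 1664 and 1246 CPM in the Chow mice and at 1532, 1272, 1645, 1365 and 1674 CPM in the TM5614 mice. The groups overlapped over most of their range, and Chow replicate 2 was not extreme here. Its log2 fold change was 0.20 (SE 0.14, adjusted p = 0.456), with a 95% interval from -0.12 to 0.51.

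Arg1 completes the cycle by releasing urea and returning ornithine. It was at 2024, 1346, 1966, 2829 and 2076 CPM in the Chow mice and at 2079, 2139, 2642, 2146 and 2438 CPM in the TM5614 mice. Both the lowest and the highest library were Chow libraries, and the groups overlapped. The estimate, as a log2 fold change, was 0.16 (SE 0.17, adjusted p = 0.605), and 0.04 without Chow replicate 2. With all libraries its 95% interval ran from -0.20 to 0.52. Thus a log2 change of 1 in either direction lay outside the interval for Otc, Asl and Arg1, but not for Cps1 and Ass1.

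The carriers came last. Slc25a13 brings aspartate from the mitochondria to the cytosol for Ass1. It was at 375, 189, 395, 374 and 411 CPM in the Chow mice and at 390, 294, 427, 413 and 427 CPM in the TM5614 mice. The libraries numbered 2 were the lowest of their groups, and the groups overlapped. The log2 fold change was 0.16 (SE 0.19, adjusted p = 0.653), and it was 0.00058 without Chow replicate 2.

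Slc25a15, also known as ORNT1, exchanges cytosolic ornithine for mitochondrial citrulline, and its loss in people causes a disorder with raised ammonia and ornithine. It was at 314, 213, 353, 441 and 331 CPM in the Chow mice and at 561, 547, 734, 528 and 596 CPM in the TM5614 mice. Every TM5614 library lay above every Chow library, and TM5614 replicate 3 was the highest. The group means were 330 ± 82.1 and 593 ± 82.5 CPM (SD, n = 5). TM5614 against Chow gave a log2 fold change of 0.84 (SE 0.17, 95% interval 0.47 to 1.22, edgeR adjusted p = 0.0168).

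The rise of Slc25a15 was 0.72 without Chow replicate 2 (adjusted p = 0.00422), 0.87 without TM5614 replicate 2 (adjusted p = 0.0286) and 0.77 with a correction for GC content and length (adjusted p = 0.00641). Without TM5614 replicate 3 it was 0.76 and missed the threshold (edgeR adjusted p = 0.0557). Over all 20 alternatives it ran from 0.72 to 0.97. Of its 2 transcripts, that of 3430 bases was searched, and no 75-base window of it was found in the transcripts of another gene.

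As a ratio within each library, which was chosen after the values were seen and was not tested, Slc25a15 to Otc in FPKM ran from 0.404 to 0.582 in Chow livers (median 0.466) and from 0.781 to 1.11 in TM5614 livers (median 0.822). The ornithine carrier thus stood higher relative to the enzyme that uses its ornithine in every TM5614 library. The ratio to the other carrier, Slc25a13, ran from 0.728 to 1.07 in Chow livers (median 0.808) and from 1.15 to 1.68 in TM5614 livers (median 1.30).

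**Figure D2:**
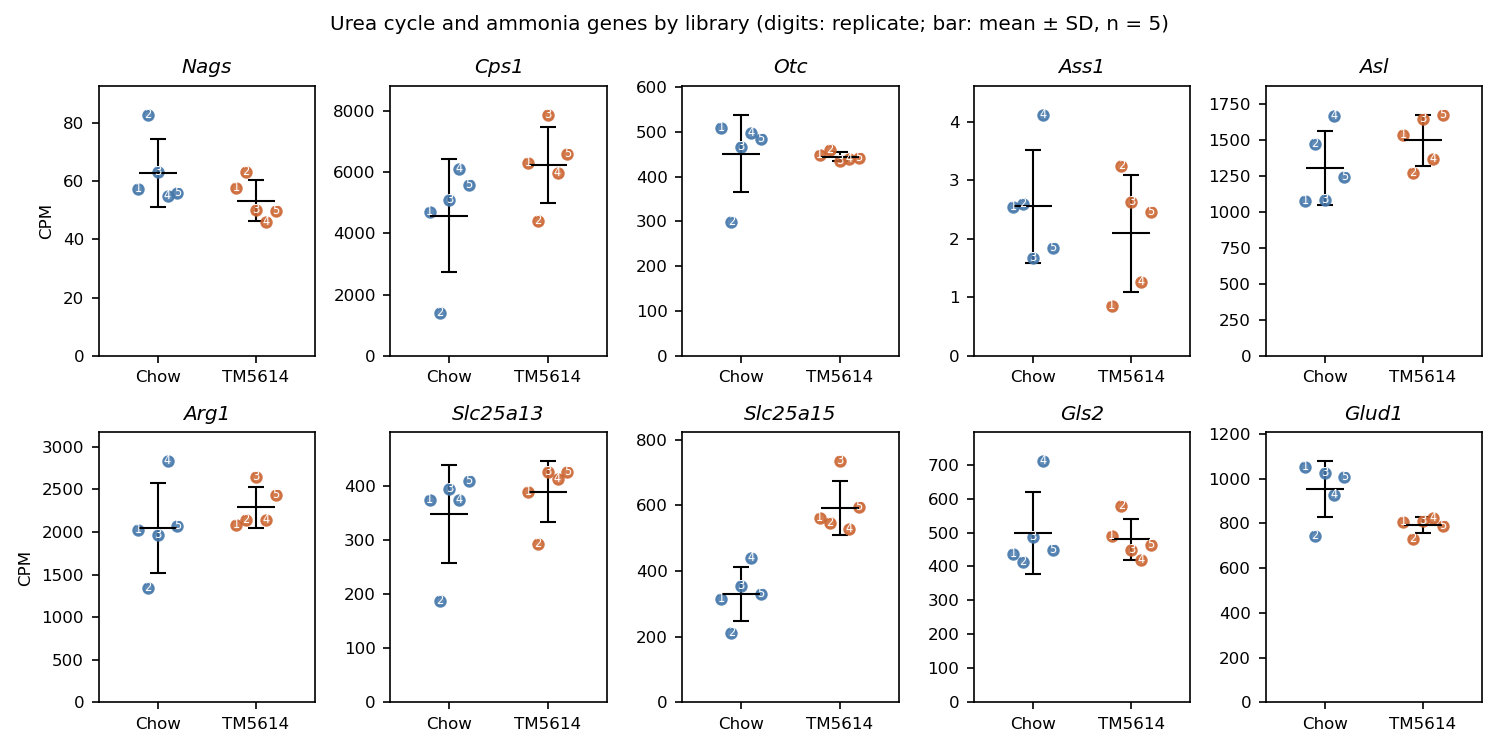
CPM of each member, 1 panel per gene with an axis from 0, with a numbered point per library (the digit is the replicate) and bars for the mean ± SD (n = 5). In the Slc25a15 panel all TM5614 points, 528 to 734 CPM, lie above all Chow points, 213 to 441 CPM. In several panels the Chow point numbered 2 lies apart from its group.

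Slc25a15 lies on the minus strand of chromosome 8, from 22375551 to 22398597 (GRCm38, GENCODE M21). Promoter sequence from RefSeq (GRCm38.p6), from 250 bases before to 50 after a transcript start, was at hand for 6 of the 10 members and held 2 windows for Slc25a15. They are shown because it was the gene that rose, with each match of the letters CCGCCC, the core of a GC box read on either strand, in capitals.
Slc25a15, chr8:22398572-22398871, minus strand: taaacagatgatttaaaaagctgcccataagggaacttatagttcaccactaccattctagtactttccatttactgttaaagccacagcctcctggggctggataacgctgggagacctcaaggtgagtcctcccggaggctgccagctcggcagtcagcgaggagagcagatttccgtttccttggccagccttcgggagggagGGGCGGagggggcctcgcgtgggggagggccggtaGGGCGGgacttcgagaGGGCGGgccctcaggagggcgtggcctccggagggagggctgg
Slc25a15, chr8:22398228-22398527, minus strand: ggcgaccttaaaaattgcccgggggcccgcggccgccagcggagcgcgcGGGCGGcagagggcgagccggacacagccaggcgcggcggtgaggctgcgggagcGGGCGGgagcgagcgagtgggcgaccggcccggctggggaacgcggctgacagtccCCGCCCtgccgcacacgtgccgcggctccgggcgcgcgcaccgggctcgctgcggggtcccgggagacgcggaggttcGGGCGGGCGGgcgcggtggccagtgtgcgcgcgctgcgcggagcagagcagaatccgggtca
The first window holds 3 matches and the second 5, some of which overlap. The same letters occur in 35.7% of the 32851 promoter windows of that table, and also in the windows of Nags, Ass1 and Glud1. The letters TGACGTCA (a cyclic AMP response element) occur in 1.79% of all windows, TGACGCAA in 0.490%, TTGCGCAA (C/EBP) in 0.183%, CAAAGTCCA (HNF4) in 0.475%, TGTTCT (part of a glucocorticoid response element) in 19.0% and TATAAA in 13.6%. None of these was in the windows at hand for members, which says only that these letters are not in these bases.

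The other members are, on the same build, Nags at chr11:102145513-102149477, Cps1 at chr1:67123026-67231259, Otc at chrX:10252305-10321024, Ass1 at chr2:31470207-31520672, Gls2 at chr10:128194457-128210004 and Glud1 at chr14:34310727-34345265 on the plus strand. Asl at chr5:130011258-130029247, Arg1 at chr10:24915221-24927484 and Slc25a13 at chr6:6041218-6217173 are on the minus strand. Gls2 shares exonic bases with Spryd4 on the other strand. Which parts of these protein-coding genes the counts cover is not given in the sources used here.

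Mice of a group also differed from each other. Chow replicate 2 was the lowest of its group in 7 of 10 members, the highest in 1, and more than 0.5 log2 units from the group median in 6. Its log2 CPM lay 1.84 below the Chow median for Cps1, 0.99 below for Slc25a13 and 0.70 below for Otc, but 0.53 above for Nags. Chow replicate 4 was the highest of its group in 6 members, with Gls2 at 0.67 and Ass1 at 0.65 above the median. No TM5614 library differed by more than 0.5 from its group median in over 1 member.

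**Figure D3:**
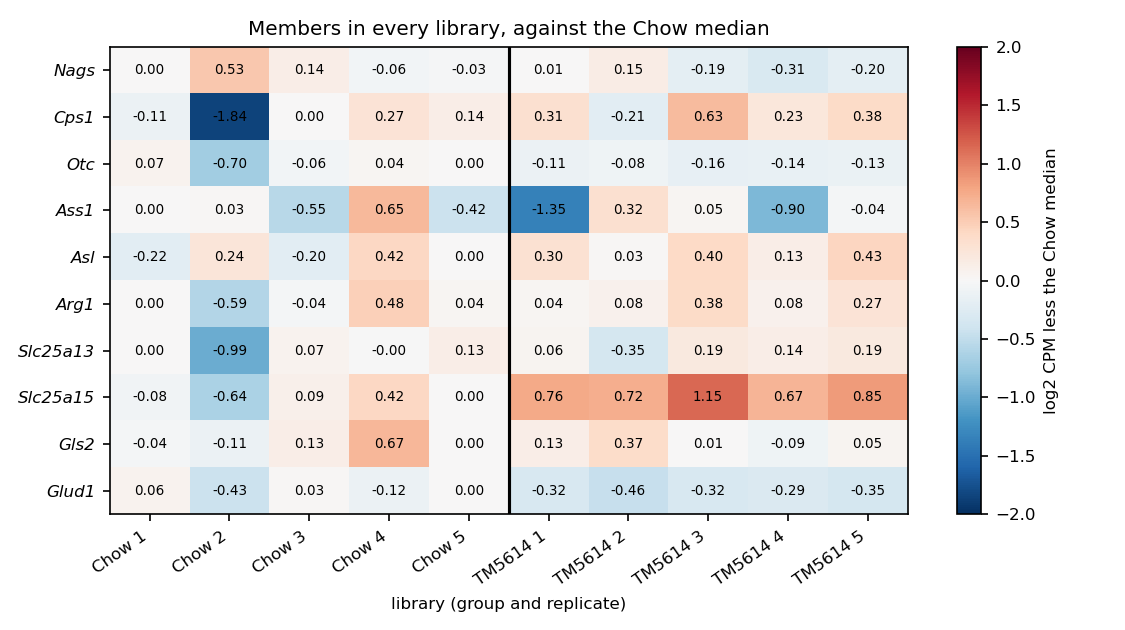
Log2 CPM of each member (rows) in each library (columns), less the Chow median of that gene, on a colour scale from blue (lower) to red (higher). Slc25a15 is the only row in which every TM5614 cell is at least 0.67, and Chow replicate 2 holds the lowest cell, -1.84 for Cps1.

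**Figure D4:**
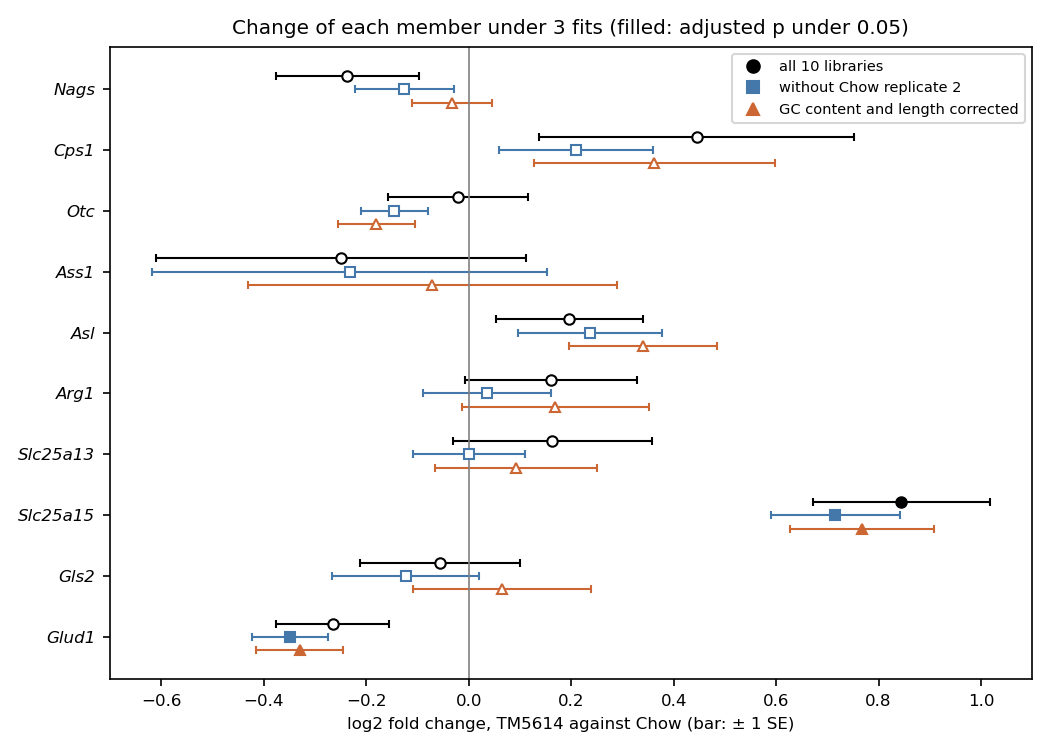
Log2 fold change of each member, TM5614 against Chow, with bars of 1 SE, in the fit of all 10 libraries (black), without Chow replicate 2 (blue) and with a correction for GC content and length (orange); filled symbols have an edgeR adjusted p under 0.05. Slc25a15 is filled in all 3 fits, from 0.72 to 0.84, and Glud1 only in the fits without that library and with the correction, at -0.35 and -0.33.

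Whether other genes that feed nitrogen into the cycle or draw on it changed was read from 101 further genes in 6 lists. Of these, 93 were tested, 3 rose and 7 fell, and their median log2 fold change was -0.024. Thus 10 of 93 were called, against 4.5% of all genes, and the groups did not overlap in 11 of 93, against 8.93%. The lists were drawn up with earlier results of these data known, so these counts only describe them. Calls that held in each of 20 alternatives at a threshold of 0.05 were those of Slc25a22, Prodh, Slc38a3, Slc36a1 and Gamt. Fh1 and Kynu lost theirs in 9, Srm in 13, Paox in 5 and Car5a in 2 (without TM5614 replicate 3 and without TM5614 replicate 4). Without TM5614 replicate 2, the library with muscle transcripts, the edgeR adjusted p was 0.0671 for Fh1, 0.0509 for Kynu, 0.0845 for Srm and 0.0737 for Paox. Without Chow replicate 2 all 10 remained called. Changes were then smaller for Car5a (-0.81), Gamt (-1.24), Paox (-0.74), Srm (-0.52), Kynu (0.61), Prodh (-0.89), Fh1 (0.60) and Slc25a22 (0.67). They were slightly larger for Slc38a3 (-0.72) and Slc36a1 (-0.76).

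On the side of mitochondrial supply, 2 of 14 genes tested rose and 1 fell. Slc25a22, a mitochondrial glutamate carrier, was at 145, 141, 153, 189 and 142 CPM in the Chow mice and at 268, 216, 290, 229 and 252 CPM in the TM5614 mice. It rose by a log2 of 0.71 (SE 0.12, edgeR adjusted p = 0.00652) and its groups did not overlap. Fh1, the fumarase that converts fumarate, a product of Asl, to malate, rose by 0.66 (adjusted p = 0.0389), with 182 to 307 CPM in Chow and 298 to 413 CPM in TM5614 livers, so that its groups overlapped.

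Car5a, the mitochondrial carbonic anhydrase that supplies Cps1 with bicarbonate, fell by 1.07 on the log2 scale (SE 0.22, edgeR adjusted p = 0.0173). It was at 60.0 to 134 CPM in the Chow mice, 134 being replicate 2, and at 31.2 to 47.1 CPM in the TM5614 mice, with no overlap. The aspartate aminotransferases, which make aspartate for Ass1 and shuttle it, were not called. Got1, the cytosolic form, was at 168 to 754 CPM in Chow and 406 to 844 CPM in TM5614 livers (log2 fold change 0.78, SE 0.33, adjusted p = 0.217, and 1.17 without Chow replicate 4, when it passed), and Got2, the mitochondrial form, had a log2 fold change of -0.04. Slc25a12, the counterpart of Slc25a13 in other tissues, had 0.28 (adjusted p = 0.379), and 0.13 without TM5614 replicate 2.

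Among glutamine genes and counterpart isoenzymes, 0 of 6 genes tested passed in edgeR, and 2 were under an unadjusted p of 0.05. Glul, the glutamine synthetase of pericentral hepatocytes, had a log2 fold change of -0.20 (adjusted p = 0.527), with 670 to 985 CPM in Chow and 485 to 904 CPM in TM5614 livers. Without TM5614 replicate 2 the estimate for Glul was -0.07. Oat, the ornithine aminotransferase, was at 436 to 1399 CPM in Chow and 1172 to 2282 CPM in TM5614 livers (0.62, adjusted p = 0.230), with Chow replicate 2 lowest. Without that library the estimate for Oat was 0.42. Arg2, the mitochondrial arginase, had 0 to 3 counts per library, and Slc25a2, the second ornithine carrier, 0 to 4, so neither was tested.

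Of 26 tested genes of amino acid catabolism, 1 rose and 1 fell. Prodh, the first enzyme of proline breakdown, fell by 1.01 (SE 0.15, edgeR adjusted p = 0.00244), from 167 to 277 CPM in the Chow mice to between 87.8 and 124 CPM in the TM5614 mice. Kynu, the kynureninase of tryptophan breakdown, rose by 0.76 (SE 0.19, adjusted p = 0.0429), with 84.0 to 189 CPM and 216 to 310 CPM and no overlap.

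Of 17 tested amino acid transporters, 0 rose and 2 fell. Slc38a3, the sodium-coupled glutamine transporter SNAT3 of the plasma membrane, was at 1279, 1443, 1399, 1625 and 1436 CPM in the Chow mice and at 974, 829, 851, 781 and 951 CPM in the TM5614 mice. It fell by 0.71 (SE 0.10, edgeR adjusted p = 0.00244), and Chow replicate 2 lay within its group. Slc36a1, a proton-coupled transporter of small amino acids, fell by 0.69 (adjusted p = 0.00733). Slc7a2, which carries arginine and ornithine into hepatocytes, had a log2 fold change of 0.15 (adjusted p = 0.814).

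Of 11 tested genes of ornithine use, polyamines and creatine, 0 rose and 3 fell. Gamt, which finishes creatine synthesis, fell by 1.53 (SE 0.27, edgeR adjusted p = 0.00733), from 106 to 274 CPM in the Chow mice to 38.8 to 72.5 CPM in the TM5614 mice. Paox, a polyamine oxidase, fell by 0.98 (adjusted p = 0.0368) and Srm, the spermidine synthase, by 0.69 (adjusted p = 0.0416). The fall of Srm was 0.37 in size with the correction for GC content and length and was then not called. Odc1, the ornithine decarboxylase that starts polyamine synthesis, had a log2 fold change of 0.27 (adjusted p = 0.240).

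Of 19 regulators of urea cycle genes, 0 passed in edgeR and 2 were under an unadjusted p of 0.05, a smaller share than the 2263 of 11092 genes. The log2 fold changes were 0.16 for Hnf4a (adjusted p = 0.421), -0.29 for Cebpa, -0.16 for Cebpb, 0.02 for the glucocorticoid receptor gene Nr3c1, -0.29 for the glucagon receptor gene Gcgr and 0.14 for Ppargc1a. The signs for Cebpb, Nr3c1 and Ppargc1a turned with the correction for GC content and length. With that correction the estimates shrank to -0.04 for Cebpa and -0.07 for Gcgr, while that for Hnf4a was 0.20. Without Chow replicate 2 they were -0.14 for Cebpa, -0.07 for Gcgr and 0.09 for Hnf4a.

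**Figure D5:**
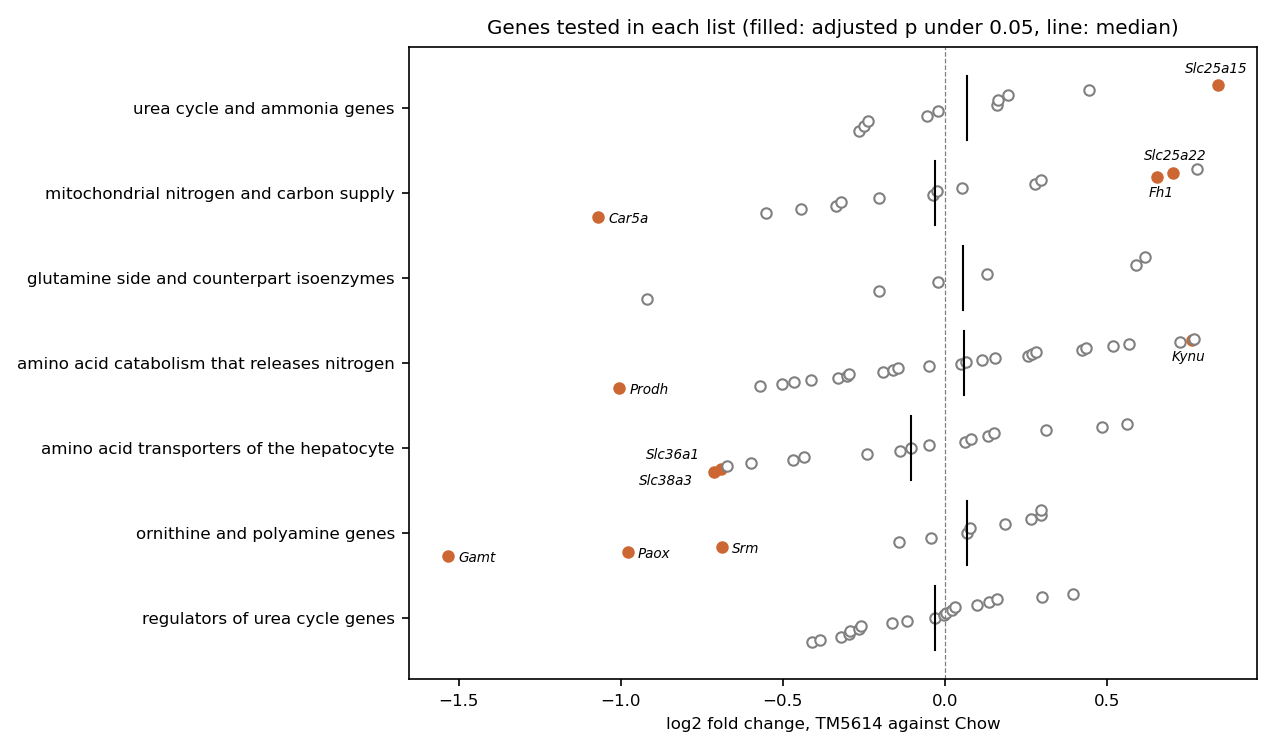
Log2 fold change, TM5614 against Chow, of each tested gene in the member list and the 6 further lists, with 1 point per gene, a filled and named point where the edgeR adjusted p is under 0.05 and a line at each list's median. Of the 10 members 1 is filled, and of the 93 further genes 10 are, 3 to the right of 0 and 7 to the left.

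Since urea cycle genes are zoned along the liver lobule, zonal markers are given beside the members. The periportal list includes the member Gls2, and the hepatocyte list includes Cps1. Of 10 periportal markers tested, 0 were called in edgeR, 1 had an unadjusted p under 0.05 and the median log2 fold change was 0.13. Of 12 pericentral markers, 5 were called, against 4.5% of all genes. The list was mixed, with 5 estimates above 0, 7 below and a median log2 fold change of -0.11. Among those called, Cyp1a2 fell by 0.66, Gulo by 0.65, Rgn by 0.59 and Lect2 by 0.83, and Axin2 rose by 0.90. Of these, Lect2 and Axin2 lost their call in 6 of 20 alternatives at a threshold of 0.05 and Rgn in 5. Without TM5614 replicate 2 the edgeR adjusted p was 0.0655 for Lect2 and 0.0534 for Rgn. The summed level of the periportal list was 5145 to 10409 CPM in Chow and 8524 to 9016 CPM in TM5614 livers, and that of the pericentral list was 12462 to 18639 and 11993 to 16796 CPM. Single genes weighed heavily in these sums. Pck1 of the periportal list was at 2321 to 6082 CPM in Chow and 4458 to 5708 CPM in TM5614 livers. Cyp2e1 of the pericentral list was at 9229 to 14322 and 9011 to 12913 CPM. Chow replicate 2 was the lowest Chow library for both genes. None of the 10 Kupffer cell markers was called in edgeR, with 0 under an unadjusted p of 0.05, although all 10 estimates were below 0. Endothelial markers summed to 108 to 183 CPM in Chow and 111 to 190 CPM in TM5614 livers, with 0 of 8 called in edgeR and 1 under an unadjusted p of 0.05. The part of these markers in the values of the members was not tested.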

How the data were processed

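Hepatic RNA libraries of 5 Chow and 5 TM5614 mice were compared, with groups taken from the sample titles and columns matched by mouse number. Per the study's methods, 75-base single-end reads were aligned with STAR to mm10. Which annotation was used, and whether reads were counted by strand, is not given in the sources used here. The counts that the authors deposited are whole numbers by gene symbol, without normalization. The FPKM values that the authors deposited scale those counts by gene length and, as checked against the counts, by DESeq2 size factors. The authors also deposited regularised log2 values and their own comparison (fold changes and p-values), and neither was used.

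After filterByExpr and TMM scaling, 11092 genes were tested with edgeR 4.0.16 in R 4.3.3 (quasi-likelihood, two-sided, no block), with Benjamini-Hochberg adjustment over all of them. CPM divide counts by the TMM-scaled library size, with a prior count of 2 on the log2 scale. Standard errors were obtained by dividing the log2 fold change by the root of F. The fits were checked on counts simulated from common gene means and the real library sizes. That check did not cover the GC content and length deviation of Chow replicate 2 or the muscle excess of TM5614 replicate 2. In the 20 within-group pairs, no libraries agreed within sampling noise. The p-values weigh the difference between groups against the variation between these mice. Litter, cage and day are not in the labels, and their part in the differences was not tested.

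The members and the lists were chosen with earlier results of these data known. Named genes are all members, every list gene with an edgeR adjusted p under 0.05, and 17 counterparts and regulators whatever their values, of which 1 is not reported here. Coordinates, transcripts and windows came by symbol from GENCODE M21 (GRCm38, the assembly mm10 names). Windows were taken from a single transcript of each gene and searched in transcripts on both strands. Alternatives were spline offsets for GC content and length (known for 96.7% of genes tested), DESeq2 1.42.0, limma-voom with sample quality weights (limma 3.58.1) and RLE factors. Others were library totals, the replicate number as a block, no filter, a minimum of 10 counts per library, an adjusted p of 0.01 and each library left out in turn. The 20 alternatives counted for single genes leave out the adjusted p of 0.01. They include the offsets with the block and the fit without both libraries numbered 2.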

Additional observations from a re-analysis of the deposited data

Results flagged for a closer look

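A library was picked out where its gap to the nearest library of its group was more than 0.71 of the group's range, Dixon's 95% limit for 5 values. Of the 82 groups of 5 examined, 17 were picked, where chance gives about 4.1. None of these was given an explanation here.

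Chow replicate 2 was picked most often. Among members, it was highest for Nags at 82.7 CPM and lowest for Otc at 299 CPM and Slc25a13 at 189 CPM. Among other genes named, it was highest for Car5a at 134 CPM, Srm at 34.0 CPM, Gamt at 274 CPM, Lect2 at 128 CPM and Gcgr at 316 CPM, and lowest for Nr3c1 at 56.8 CPM. Chow replicate 4 was highest for the member Gls2 at 709 CPM and for Slc25a22 at 189 CPM and Fh1 at 307 CPM, and lowest for Glul at 670 CPM.

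In the TM5614 group, replicate 2 was lowest for the member Slc25a13 at 294 CPM and for Glul at 485 CPM. Replicate 3 was highest for Fh1 at 413 CPM, and replicate 1 was highest for Srm at 17.5 CPM.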

How the results depend on the processing

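Slc25a15 kept its direction in all 20 alternatives and its call in 19, the exception being the fit without TM5614 replicate 3. The 8 members other than Slc25a15 and Glud1 were called in none of their alternatives. The number of members called was 1 with DESeq2, and 2, with Glud1 added, in limma-voom with sample quality weights, with the GC content and length offsets, with these offsets and the replicate block, and without both libraries numbered 2, which was chosen after seeing the data. It was 0 at an adjusted p of 0.01 and ran from 0 to 2 when each library was left out. Over all genes, 908 were called with DESeq2, 1386 in limma-voom with these weights, 771 with the offsets and the block, 184 at an adjusted p of 0.01, 1230 without both libraries numbered 2, and 235 to 1031 with each library left out, the most without Chow replicate 2. Of the pathway genes, 20 were called in limma-voom, 5 at an adjusted p of 0.01, 18 without both libraries numbered 2, and 5 to 16 with each library left out.

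Same-numbered libraries deviated together with correlations of 0.032 to 0.32, and only replicate 2 was closest to its own number, so the numbers were not taken as pairs. With the replicate number as a block, 555 genes, 1 member and 11 pathway genes were called.

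Estimates near 0 changed sign. Otc was 0.024 with library totals, 0.0021 with the replicate block and -0.15 to 0.018 with each library left out. Gls2 was 0.065 with the offsets, 0.11 with offsets and block, and -0.13 to 0.098 with each library left out. Got2 was 0.016 in limma-voom, 0.013 with library totals, 0.074 with the offsets, 0.070 with offsets and block, 0.048 without both libraries numbered 2 and -0.077 to 0.0046 with each left out. Slc7a2 was -0.040 without both libraries numbered 2 and -0.087 to 0.39 with each left out. Cebpb was 0.13 with the offsets and 0.21 with offsets and block. Nr3c1 was -0.11 in limma-voom, -0.18 with the offsets, -0.18 with offsets and block, -0.10 without both libraries numbered 2 and -0.12 to 0.078 with each left out. Ppargc1a was -0.027 in limma-voom, -0.030 with the offsets, -0.033 with offsets and block, -0.028 without both libraries numbered 2 and -0.078 to 0.28 with each left out. The cause of these changes was not tested. Ass1 had 6 to 27 counts per library, the fewest of the members.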
